A study of Mus musculus with 12 samples.

Results

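The replication-dependent histone genes were all rows of the deposited gene table whose name begins with Hist1h, Hist2h, Hist3h or Hist4h, 71 of the 34745 genes in the table. They carried 70 names, because Hist2h2bb stood on 2 overlapping gene identifiers (ENSMUSG00000050936 and ENSMUSG00000105827), which are given here as separate rows. Their names placed 56 members in Hist1, 11 in Hist2, 3 in Hist3 and 1, Hist4h4, in Hist4. In the mm10 coordinates of the table these lay on chromosomes 13, 3, 11 and 6. Hist1h2al lay far from the other Hist1 members, at position 51202688, where the others ran from 21715763 to 23934851. It is counted with Hist1 by its name. Of all 71, 6 belonged by name to the linker type h1, 20 to h2a, 20 to h2b, 12 to h3 and 13 to h4, the last 4 types being the core histones. In GENCODE M21, 3 of them were annotated as pseudogenes, namely Hist1h2aj, Hist1h2al and Hist3h2bb-ps, and 1 as a lincRNA, the Hist2h2bb row ENSMUSG00000050936.

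RNA of total femoral bone marrow cells from 12 male ICR mice was sequenced, 1 mouse a library and 3 mice a group. The normal group received saline. The model group received cyclophosphamide, an alkylating drug that damages DNA, at 80 mg/kg/day on days 5 to 7 of a 1-week course, and otherwise vehicle. Mice of the QJSB group had the herbal granule QJSB (Qi-Jing-Sheng-Bai) by mouth at 3 g/kg/day for 1 week on top of that cyclophosphamide, and the leucogen group received the same cyclophosphamide and leucogen, a drug given for low white cell counts, at 20 mg/kg/day for 1 week. All groups except the normal group had therefore had cyclophosphamide, the marrow was an unsorted mixture of cells, and there was no group given QJSB or leucogen alone. The columns of the deposited table carry other headings than the sample labels, and the QJSB columns were named by elimination, as described with the processing.

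Replication-dependent histone genes supply most of the histone that packages newly copied DNA. Their mRNAs accumulate in S phase, end in a stem-loop that the protein SLBP binds instead of a poly(A) tail, and are degraded when DNA synthesis stops. Marrow, where blood cell precursors divide continuously, is rich in these mRNAs. The libraries were made from total RNA after removal of ribosomal RNA, so that mRNAs without a poly(A) tail were retained.

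The 12 libraries held 11172547 to 18545198 counts each. Levels are given in CPM, counts divided by the library's total on a common scale, after TMM scaling, whose factors ran from 0.932 to 1.13, and differences as log2 fold changes with their standard error (SE). A gene was called past the adjusted cutoff when it differed by more than 1.5-fold and its p in edgeR's quasi-likelihood fit, adjusted by Benjamini and Hochberg's method over all genes tested, was under 0.05. 1 non-coding gene, Gm26917, took 1.21% to 2.08% of the counts in the normal and leucogen libraries and 2.96% to 4.88% in the model and QJSB libraries. Without it the histone share of counts was 1.70% to 1.77% in the normal group, 0.794% to 1.15% in the model group, 1.12% to 1.41% in the QJSB group and 0.471% to 0.621% in the leucogen group.

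Histone mRNA was highest in the normal group and lowest in the leucogen group, and the model and QJSB groups lay between. Summed over the 71 genes, the normal libraries held 17790, 17310 and 16820 CPM, the model libraries 7883, 7250 and 10680, the QJSB libraries 9853, 14560 and 11540, and the leucogen libraries 4706, 6532 and 4993. The normal libraries stood above, and the leucogen libraries below, every library of the other groups, while the model and QJSB libraries overlapped. In counts per length (FPKM) the sums of these 2 groups did not overlap, at 14250 to 19080 and 19360 to 22720. Nor did their Hist1 sums in CPM, at 5554 to 7869 and 7878 to 9964, while those of Hist2, Hist3 and Hist4 did. Over all 71 genes the means were 17310 ± 482 CPM in the normal group, 8604 ± 1824 in the model group, 11990 ± 2387 in the QJSB group and 5410 ± 982 in the leucogen group (SD, n = 3 mice). These sums were not tested, and in unsorted marrow fewer cells of a type and less RNA per cell cannot be told apart.

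**Figure D1:**
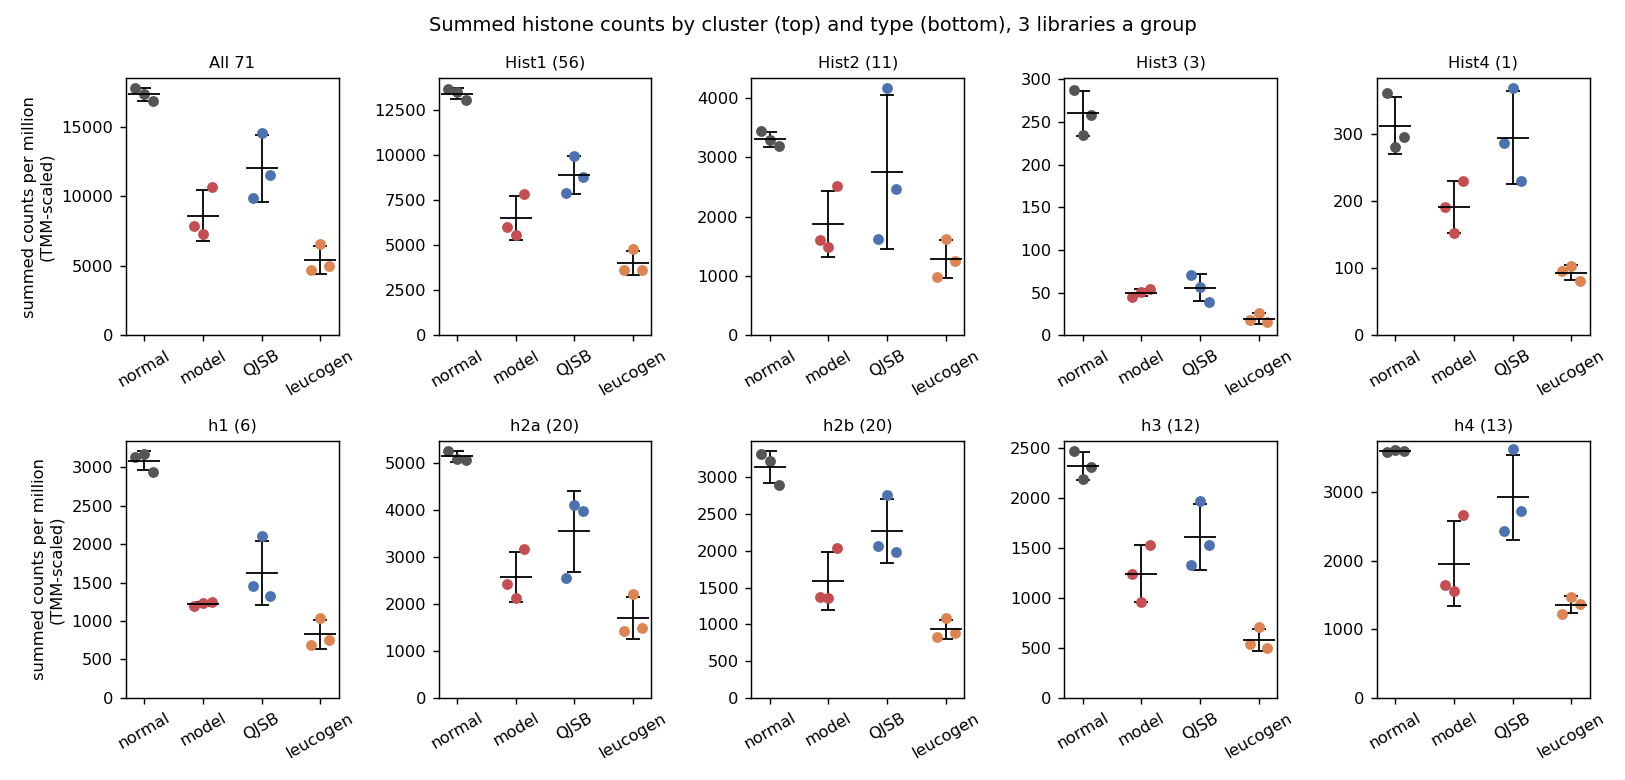
Summed TMM-scaled CPM of the histone genes for each library (points), with the group mean and SD (bars, n = 3), for all 71 genes, the 4 clusters and the 5 types. Normal libraries were highest and leucogen libraries lowest in the sum over all 71 genes, and for Hist3 the range of the QJSB libraries (39.3 to 70.8) included that of the model libraries (45.2 to 53.5).

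After cyclophosphamide alone, the comparison of model with normal mice, genes of all 4 clusters and all 5 types were lower. Of 70 members tested, 47 fell past the adjusted cutoff and none rose, whereas 19.0% of all genes tested fell and 16.1% rose. Scaled to total counts instead, 44 members fell, and the split over all genes turned from 2368 higher and 2802 lower to 3026 higher and 2346 lower. The median log2 fold change of the members was -1.05, a 2.08-fold lower level, against 0.02 for all genes tested. All 70 log2 fold changes were below 0, from -4.36 to -0.19. Genes that fell numbered 40 of 55 tested in Hist1, 3 of 11 in Hist2, 3 of 3 in Hist3 and the single Hist4 gene. By type they were 6 of 6 for h1, 15 of 19 for h2a, 10 of 20 for h2b, 4 of 12 for h3 and 12 of 13 for h4.

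The linker histones h1, which bind DNA between nucleosomes, fell in all 6 members. Hist1h1c, which can also be made as a polyadenylated mRNA, stood at 1364, 1351 and 1182 CPM in the normal group and at 351, 523 and 392 in the model group (log2 fold change -1.62, SE 0.18, adjusted p = 0.000226). Hist1h1c was also low in QJSB libraries, at 317, 677 and 454 CPM, and in leucogen libraries, at 342, 373 and 362. The 9 libraries after cyclophosphamide shared a range that lay below all 3 normal libraries. Hist1h1e fell by 1.34 (SE 0.19), Hist1h1d by 1.26 (SE 0.32), Hist1h1a by 1.26 (SE 0.13) and Hist1h1b by 0.88 (SE 0.22) on the log2 scale. As a share of all histone counts, type h1 made up 17.8% ± 0.474 in the normal group, 14.6% ± 2.68 in the model group, 13.6% ± 1.82 in the QJSB group and 15.2% ± 0.678 in the leucogen group (SD, n = 3). All 3 libraries of each cyclophosphamide group had a smaller h1 share than the lowest normal library, 17.5%.

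Hist3 fell most. Hist3h2a, an h2a gene, measured 265, 217 and 241 CPM in normal libraries and 44.1, 50 and 52.9 in model libraries, a 4.90-fold lower level (log2 fold change -2.29, SE 0.14, adjusted p = 1.46e-05). Its level was 68.9, 55.7 and 38.3 CPM with QJSB and 17.2, 25.8 and 14.6 with leucogen. Hist3h2ba, an h2b gene, had 229, 184 and 194 counts in the normal libraries, 16, 13 and 4 in the model libraries, 28, 8 and 7 in the QJSB libraries and 1, 4 and 1 in the leucogen libraries. Every normal library was thus far above the highest library of any other group. Its fitted log2 fold change was -4.36 (SE 0.41, adjusted p = 0.000105) in model against normal mice, a value that depends on the prior count at such low counts. The neighbouring pseudogene Hist3h2bb-ps went the same way (log2 fold change -4.02, SE 0.41, adjusted p = 0.000162). Hist3 gave 1.5% ± 0.133 of histone counts in the normal group, 0.593% ± 0.104 in the model group, 0.483% ± 0.206 in the QJSB group and 0.357% ± 0.0536 in the leucogen group (SD, n = 3). The cluster's share after cyclophosphamide was below the lowest normal library, 1.36%, in all 9 libraries.

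Among the core histones of the Hist1 cluster, the h4 genes of the highest level per length fell. Hist1h4n read 552.6, 599 and 584.5 CPM in the normal libraries and 232, 248 and 386.5 in the model libraries (log2 fold change -1.0, SE 0.20, adjusted p = 0.00415). Hist1h4b (log2 fold change -0.98, SE 0.29) and Hist1h4d (-0.64, SE 0.22) also fell, and Hist1h3i, an h3 gene, fell by 1.06 (SE 0.17) on the log2 scale. For h2a, Hist1h2ao fell by 1.02 (SE 0.23), and for h2b, Hist1h2bb fell by 1.55 (SE 0.19) while Hist1h2bl, at -1.22 (SE 0.45), missed the cutoff with an adjusted p of 0.07 although its groups did not overlap. The h3 gene Hist1h3e did not pass either, at -0.63 (SE 0.50). Its model libraries read 140, 196 and 556 CPM against 493, 425 and 461 in the normal group, so that 1 model library lay above and 2 lay below the normal range.

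Of the Hist2 genes, Hist2h2be, an h2b gene that can also be polyadenylated, Hist2h2ac and Hist2h2ab, both h2a genes, passed the cutoff, with log2 fold changes of -1.41 (SE 0.19), -0.98 (SE 0.19) and -0.83 (SE 0.19). The h3 genes Hist2h3b (-0.35, SE 0.32), Hist2h3c1 (-0.48, SE 0.28) and Hist2h3c2 (-0.66, SE 0.28), the h4 gene Hist2h4 (-0.54, SE 0.24) and the h2a genes Hist2h2aa1 (-0.19, SE 0.31) and Hist2h2aa2 (-0.87, SE 1.08) did not pass it. Neither Hist2h2bb row passed it, at -1.77 (SE 0.87) for ENSMUSG00000050936 and -0.95 (SE 0.36) for ENSMUSG00000105827. Hist4h4, an h4 gene whose mRNA can also be polyadenylated, fell by 0.71 (SE 0.17, adjusted p = 0.0119) on the log2 scale. Of the genes known mainly from testis, Hist1h2aa had at most 1 count in any library and was not tested, Hist1h2ba read -1.14 (SE 0.51) and did not pass, and Hist1h1t, with 24 to 40 counts in the normal and 1 to 13 in the model libraries, fell by 2.45 (SE 0.58, adjusted p = 0.0103) on the log2 scale. Of 4 germ cell markers Tnp1 had no count in any library, and the summed level of the 4 was 1.37 to 2.14 CPM in the normal and 0 in the model libraries.

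**Figure D2:**
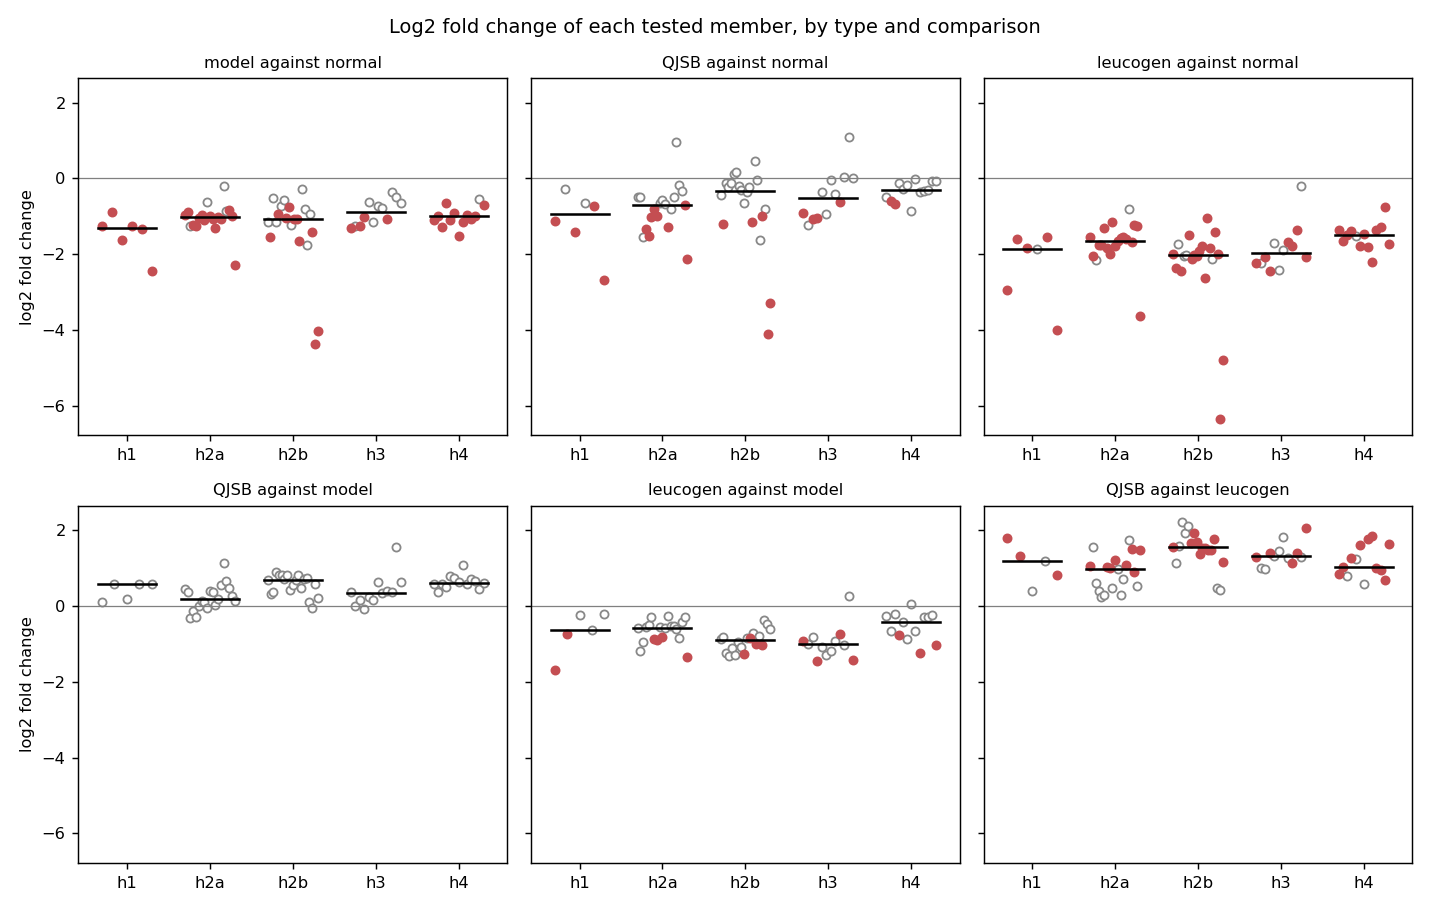
Log2 fold change of each tested histone gene (points, in alphabetical order within a type) for the 6 comparisons, with the median of the type (black line). Filled red points passed the adjusted cutoff, and they were 47 in model against normal, none in QJSB against model and 37 in QJSB against leucogen mice.

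Promoters of 61 members were matched by symbol in the RefSeq table (GRCm38.p6), each as 250 bases before and 50 after the gene's start, and 4 are shown because they cover the linker type, both core types with the clearest motif contrast, and the gene that fell most. Capitals mark the motifs searched on both strands: the TATA box as TATAAA, the CCAAT box, the octamer as ATTTGCAT, which Oct-1 binds, and an E2F-type motif as TTTCCCGC. A match on the other strand is in capitals too. Hist1h1a (chr13:23763418-23763717, + strand) fell in model mice and again with leucogen, Hist1h2bg (chr13:23571150-23571449, + strand) carries the octamer, Hist1h4k (chr13:21750504-21750803, - strand) was 3.57-fold higher with QJSB than with leucogen, and Hist3h2ba (chr11:58948661-58948960, + strand) had the largest fall.
Hist1h1a: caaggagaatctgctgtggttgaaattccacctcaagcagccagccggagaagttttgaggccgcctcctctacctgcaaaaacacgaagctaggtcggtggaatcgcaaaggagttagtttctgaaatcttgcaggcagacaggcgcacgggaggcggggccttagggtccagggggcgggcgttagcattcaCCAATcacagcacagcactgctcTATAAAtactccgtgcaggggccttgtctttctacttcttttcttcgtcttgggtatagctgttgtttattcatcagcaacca
Hist1h2bg: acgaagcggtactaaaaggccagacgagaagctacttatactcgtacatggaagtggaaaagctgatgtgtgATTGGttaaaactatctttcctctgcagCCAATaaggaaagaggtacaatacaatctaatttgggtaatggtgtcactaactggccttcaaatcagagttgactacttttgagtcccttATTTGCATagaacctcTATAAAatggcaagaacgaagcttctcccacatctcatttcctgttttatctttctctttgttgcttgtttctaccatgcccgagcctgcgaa
Hist1h4k: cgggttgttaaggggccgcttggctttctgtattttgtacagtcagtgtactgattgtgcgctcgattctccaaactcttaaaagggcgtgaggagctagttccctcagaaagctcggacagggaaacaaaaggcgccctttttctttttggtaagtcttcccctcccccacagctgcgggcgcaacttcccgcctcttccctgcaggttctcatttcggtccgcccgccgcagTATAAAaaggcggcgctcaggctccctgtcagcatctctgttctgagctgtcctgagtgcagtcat
Hist3h2ba: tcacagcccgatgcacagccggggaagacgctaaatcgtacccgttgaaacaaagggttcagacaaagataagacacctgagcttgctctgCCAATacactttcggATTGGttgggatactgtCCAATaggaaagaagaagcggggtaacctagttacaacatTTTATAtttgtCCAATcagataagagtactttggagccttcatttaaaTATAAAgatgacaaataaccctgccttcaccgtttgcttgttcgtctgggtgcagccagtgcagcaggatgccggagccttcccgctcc
CCAAT was found in 52 of the 61 member promoters (85.2%) and in 37.9% of all 27025 promoters of the table. It stood in every matched promoter of types h1, h2a, h2b and h3 but in only 3 of 12 for h4. TATAAA, counted at any position of the window and on either strand, was found in 57.4% of member promoters and 14.2% of all promoters. The octamer stood in 7 of 17 h2a and 6 of 16 h2b promoters, in none of types h1, h3 and h4, and in 1.75% of all promoters, and TTTCCCGC in 1 member promoter, of type h4, and in 1.11% of all promoters. Windows of some h2a and h2b genes on opposite strands overlap, as for Hist1h2ae and Hist1h2bg. The same octamer, CCAAT or TATAAA there counts for both genes, so these counts are not of separate stretches. These matches describe letters in the window and were not tested against the expression values.

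QJSB added to cyclophosphamide, compared with the model group, gave no histone gene past the adjusted cutoff, which none of the 14486 genes tested passed (0.0%). At an unadjusted p under 0.05, 11 of 68 tested members and 722 of all genes were below that level. By the cutoff the study used, a difference of more than 1.5-fold with an unadjusted p under 0.05, 10 members were higher and none lower, against 1.68% of all genes higher and 1.39% lower. With the replicate numbers as a block, a fit described with the processing, 17 members and 433 of all genes were higher. Without single libraries the number of members higher ran from 1 (without model 2) to 27 (without model 3). Without model 1 it was 4, without QJSB 2 it was 3, and without QJSB 1 and QJSB 3 it was 18 and 17. Over all genes 148 were higher without model 2, 490 without model 3, 193 without model 1 and 64 without QJSB 2. Without QJSB 1 and QJSB 3, 843 and 166 of all genes were higher. Scaled to total counts 6 members were higher, and the split over all genes turned from 243 higher and 202 lower to 153 higher and 281 lower. The median log2 fold change of the members was 0.47, with 61 of 68 above 0, against -0.02 for all genes. By type the 10 were 6 of 13 tested for h4, 3 of 19 for h2b and 1 of 5 for h1.

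Hist1h4j, an h4 gene, had the smallest unadjusted p. It read 12.3, 11.8 and 19.3 CPM in the model libraries and 24.9, 43.2 and 25.6 in the QJSB libraries, a log2 fold change of 1.09 (SE 0.29, adjusted p = 0.767). Its groups did not overlap, which held for 5 members, all of them higher with QJSB. Among all genes 4.5% had such separated groups with QJSB higher and 5.3% with QJSB lower. Hist1h2bj read 63.4, 36.6 and 53.4 CPM in model and 115, 101 and 60.1 in QJSB libraries (log2 fold change 0.83, SE 0.28), and here the groups overlapped. Among the other genes past the study's cutoff, Hist1h4m (0.71, SE 0.25), Hist1h4n (0.66, SE 0.24) and Hist4h4 (0.61, SE 0.22) had fitted levels 1.53-fold to 1.64-fold higher. Hist3h2a (0.13, SE 0.22), Hist1h1a (0.11, SE 0.25) and Hist1h1c (0.18, SE 0.28), which had fallen after cyclophosphamide, read close to 0 with overlapping groups.

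Set against the normal group, QJSB mice had 23 of 70 tested members lower and none higher, where 19.9% of all genes were lower and 18.0% higher. Without normal 1 the count was 14 and without normal 2 it was 15. Over all genes 2550 and 2464 were lower in those fits, in place of 2955. The median of the members was -0.53. The 3 Hist3 genes were among the 23, with log2 fold changes of -4.10 to -2.14, as were Hist1h1c (-1.42, SE 0.26) and Hist1h1a (-1.13, SE 0.23). Called were 2 of 13 h4 genes and 4 of 12 h3 genes, for h3 the same number as in model against normal mice. Hist4h4 read -0.07 (SE 0.19) and Hist1h4j -0.02 (SE 0.22), while Hist2h3c2 had a fold change of 0.998. These genes were compared with the same QJSB libraries in the preceding comparison, so the 2 sets of values are not independent.

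Leucogen added to cyclophosphamide was accompanied by still lower histone mRNA. Against the model group 17 of 67 tested members fell past the adjusted cutoff and none rose, compared with 11.5% of all genes lower and 11.6% higher (with total-count scaling 28 members fell, and over all genes 2655 were lower and 1151 higher, against 1634 and 1642), and the median of the members was -0.81 against -0.05 for all genes. The count was lower without some single libraries, being 5 without leucogen 1, 4 without leucogen 3 and 9 without model 3. Over all genes 668, 494 and 1224 were lower in those fits, in place of 1634. Hist1h1a measured 201, 155 and 186 CPM in the model libraries and 41.8, 85.0 and 40.3 in the leucogen libraries, a 3.23-fold lower level (log2 fold change -1.69, SE 0.29, adjusted p = 0.00718). Hist1h3d (-1.46, SE 0.38) and Hist2h3c2 (-1.43, SE 0.29), both h3 genes, were the next largest falls. Hist2h3c2 stood at 239, 171 and 401 CPM in model and 98.5, 112 and 89.8 in leucogen libraries, with no overlap. Hist3h2a fell by a further 1.34 (SE 0.21), Hist1h4k by 1.24 (SE 0.27) and Hist4h4 by 1.03 (SE 0.17) on the log2 scale. Hist1h1c (-0.23, SE 0.17), Hist1h4n (-0.30, SE 0.21) and Hist2h4 (-0.23, SE 0.23) did not pass the cutoff.

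Against normal mice, 57 of 70 tested members were lower in the leucogen group and none was higher, beside 19.8% of all genes lower and 17.8% higher. The median of -1.79 corresponds to a 3.45-fold lower level. Hist1h4k, at 159, 167 and 183 CPM in the normal and 35.7, 37.3 and 35.5 in the leucogen libraries, fell by 2.21 on the log2 scale (SE 0.09, adjusted p = 8.14e-08), and Hist2h2aa1 (-0.80, SE 1.57) and Hist2h3c1 (-0.20, SE 0.42) were among those that did not pass. The share of type h3 in histone counts was 10.8% ± 0.697 in the leucogen group and 13.4% ± 0.674 in the normal group, and that of h4 was 25.4% ± 2.5 and 20.8% ± 0.632 (SD, n = 3).

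Genes of all 4 clusters and all 5 types were higher with QJSB than with leucogen. Of 67 tested members 37 were higher with QJSB and none lower, against 12.9% of all genes higher and 11.7% lower, with a median of 1.26, a 2.39-fold higher level. All 67 log2 fold changes were above 0. Without leucogen 1 the count was 23 (1090 of all genes higher) and without leucogen 3 it was 24 (769 of all genes), in place of 37 (1836 of all genes). The largest called was Hist2h3c2, at 344, 518 and 413 CPM with QJSB and 98.5, 112 and 89.8 with leucogen (log2 fold change 2.07, SE 0.18, adjusted p = 0.00273). Hist1h2bj (1.92, SE 0.39) and Hist1h4k (1.84, SE 0.18) followed, and in all 3 genes the groups did not overlap. By type, 10 of 13 h4 genes, 11 of 18 h2b genes, 5 of 12 h3 genes, 8 of 19 h2a genes and 3 of 5 h1 genes were called. By cluster they were 29 of 54 in Hist1, 6 of 11 in Hist2 and the single tested gene of Hist3 and of Hist4. Both groups had received cyclophosphamide, and the 6 comparisons share libraries with each other.

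Other genes of the pathway were counted against the same background, 19.0% of all genes lower and 16.1% higher in model against normal mice and 11.5% lower and 11.6% higher in leucogen against model mice. Of 16 genes for histone mRNA processing and transcription, 2 fell and 1 rose in model against normal mice, with a median log2 fold change of 0.04. Slbp, which encodes the stem-loop binding protein, fell from 140 ± 8.81 to 76.1 ± 7.54 CPM (SD, n = 3, log2 fold change -0.87, SE 0.13, adjusted p = 0.00101) and Pou2f1, which encodes the octamer-binding factor Oct-1, fell by 0.62 (SE 0.11) on the log2 scale. Npat, the S phase coactivator of histone gene transcription, read -0.33 (SE 0.11) and did not reach the cutoff. Cpsf3, the nuclease that cuts the 3' end, rose by 0.59 (SE 0.16). Of 14 histone chaperones only Asf1a fell (-0.73, SE 0.13) and none rose. With QJSB against the model group no gene of either list passed the adjusted cutoff, and Slbp read -0.04 (SE 0.17). With leucogen against the model group Lsm10 (-0.81, SE 0.25), Sympk (-0.75, SE 0.18) and Coil (-0.89, SE 0.21), which act in histone pre-mRNA processing or the nuclear bodies where it takes place, fell, and the chaperone-associated Atrx rose by 0.64 (SE 0.19).

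Of 26 genes of DNA replication and S phase, 8 fell and 1 rose in model against normal mice (19.0% and 16.1% of all genes), with a median of -0.29. The falls included E2f2, a transcription factor of S phase entry (-2.11, SE 0.18), Pcna, the sliding clamp (-0.90, SE 0.16), and the cyclin genes Ccne1 (-1.04, SE 0.18), Ccne2 (-1.17, SE 0.21) and Ccna2 (-0.69, SE 0.12), and Cdc45 rose by 0.64 (SE 0.18). None passed in QJSB against model mice (median 0.05). With leucogen against the model group 6 fell, beside 11.5% of all genes, among them Cdt1 (-1.22, SE 0.21), Mcm3 (-1.08, SE 0.22) and Mcm7 (-1.03, SE 0.20), which license and unwind origins, and Ccne2 rose by 1.03 (SE 0.18). Between QJSB and leucogen 8 were higher and 2 lower with QJSB, where 12.9% of all genes were higher and 11.7% lower. The summed level of the histone genes divided by that of the 26 genes was 3.49 ± 0.0350 in the normal group, 2.33 ± 0.260 in the model group, 3.20 ± 0.688 in the QJSB group and 1.80 ± 0.243 in the leucogen group (SD, n = 3). The ratio in all 3 normal libraries, 3.46 to 3.53, was above all model (2.17 to 2.63) and leucogen libraries (1.64 to 2.08) and inside the range of the QJSB libraries, 2.49 to 3.86.

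**Figure D3:**
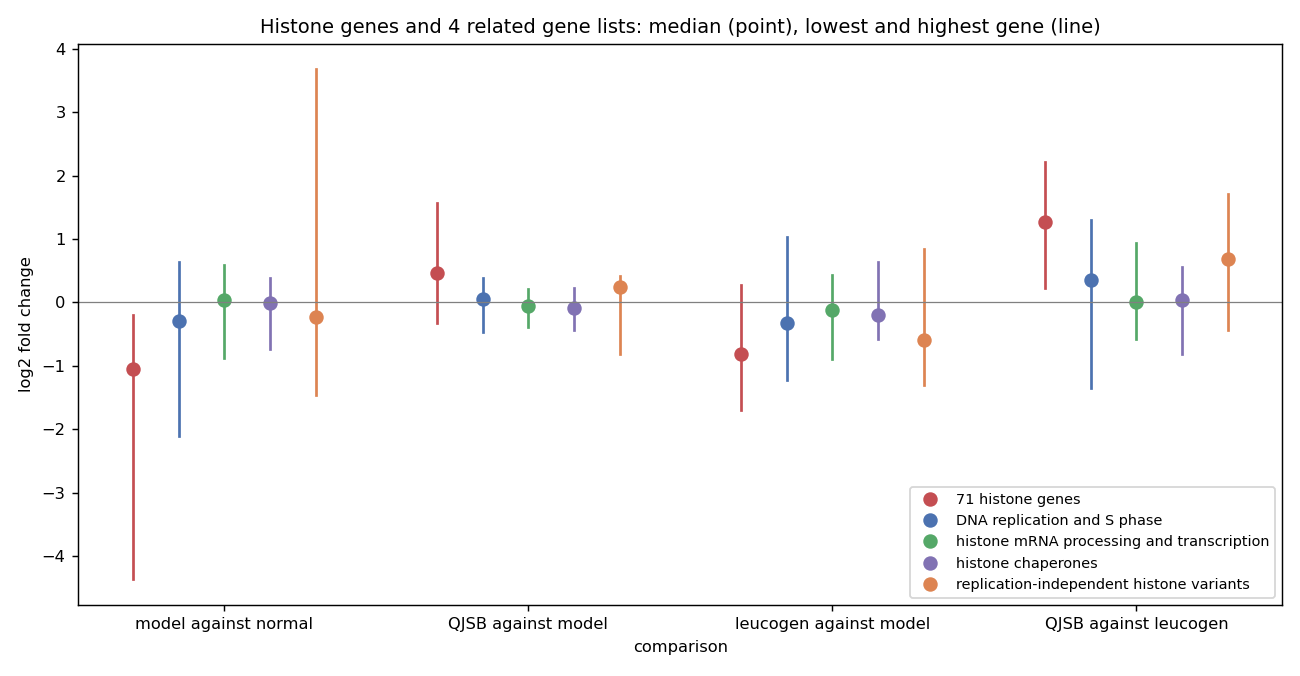
Median (point) and lowest and highest log2 fold change (line) of the tested histone genes and of 4 related gene lists in 4 comparisons. The histone median was -1.05 in model against normal mice, below the medians of all 4 lists, and 1.26 in QJSB against leucogen mice, above them.

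Several marker lists of marrow cell types differed between groups. Over all genes 19.0% fell and 16.1% rose in model against normal mice, and 11.5% fell and 11.6% rose in leucogen against model mice. All 8 erythroid markers fell in model against normal mice, from a summed 13790 to 14870 CPM in the normal libraries to 248 to 1060 in the model libraries, and stood at 221 to 515 with QJSB and 393 to 693 with leucogen. All 6 B lineage markers fell, from 992 to 1101 CPM to 9.0 to 87.8, with 6.08 to 17.8 in QJSB and 5.22 to 8.35 in leucogen libraries, and all 3 T cell markers fell, from 18.3 to 25.8 CPM to 2.89 to 2.91. Of 8 neutrophil lineage markers 2 rose and 2 fell in model mice, at 16200 to 19720 CPM in the normal and 8136 to 20340 in the model libraries, and in leucogen against model mice 5 rose and 2 fell, at 46000 to 54670 CPM. The QJSB libraries were spread from 12060 to 36790 CPM. Of 5 monocyte and macrophage markers 2 rose and 1 fell in model mice. In leucogen against model mice 1 rose and 3 fell, although their sum went from 2101 to 4529 up to 11640 to 13330 CPM. None of 3 megakaryocyte, 4 bone and stroma or 3 skeletal muscle markers, and 1 of 3 endothelial markers, passed in model against normal mice. The 4 bone and stroma markers summed to 669 CPM in model 1 and 840 in QJSB 1, and to 146 to 214 in the other model and QJSB libraries. No marker of any list other than Tnp1 was at 0 in all libraries. The part of these cell types in the histone values was not tested.

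The spread of members among the mice of a group was described next. Over the 69 members with a mean of at least 1 CPM, the highest library of the normal group was a median 1.17-fold above its lowest and no member exceeded 2-fold. In the model, QJSB and leucogen groups the median ratio was 2.01, 1.86 and 1.60, and 36, 31 and 29 members exceeded 2-fold. For all genes at that level the medians were 1.20, 1.44, 1.42 and 1.27 in the normal, model, QJSB and leucogen groups, and the shares over 2-fold were 6.90%, 17.6%, 19.3% and 10.4%. Hist3h2ba and Hist3h2bb-ps reach that level only through the normal group. Over the 67 members with a mean of at least 1 CPM in every group, a limit chosen after seeing the data, none exceeded 2-fold in the normal group and 34, 30 and 27 did in the model, QJSB and leucogen groups, against 4.92%, 14.3%, 16.1% and 7.59% of all genes at that limit.

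The largest swings were in h2a genes with near-identical copies. Hist1h2al, which had the highest level per length in the normal group at 3843 ± 173 FPKM (SD, n = 3), read 1216, 0.405 and 1540 CPM in the 3 QJSB libraries, that is 22663, 7 and 25292 counts. Hist2h2aa1 read 3.27, 1913 and 459 CPM in the same libraries and 0.873, 448 and 246 in the leucogen libraries, and Hist2h2aa2 read 139, 5.03 and 249 in the model libraries. The library with almost no Hist1h2al, QJSB 2, was the one with the most Hist2h2aa1. Joined, these 3 genes gave 1332, 2215 and 2219 CPM with QJSB, 2062, 2113 and 2208 in the normal group, 1204, 861 and 1514 in the model group and 532, 1224 and 559 with leucogen. The 3 were picked for their swings, and adding a high gene to a near-empty one narrows the spread by itself. With QJSB the highest library was 3802-fold above the lowest for Hist1h2al alone and 1.67-fold for the 3 together. In the model group these ratios were 1.25 and 1.76, and 49.5 for Hist2h2aa2 alone. With leucogen they were 2.54 and 2.30, and 512 for Hist2h2aa1 alone. Among 69 members with a GENCODE M21 transcript, a median of 49.5% of the 50-base windows were shared with another member, from 1.10% for h1 to 73.2% for h2a, and all windows of Hist2h2aa2 recur in another gene. Gene coordinates were the same in M21 for 48 members, so for the others these shares may not hold for the counted stretch. How reads that fit several copies were counted is not given in the sources used here, so values of single h2a, h2b, h3 and h4 genes are less certain than sums. Counts summed by cluster and type before the fit kept the direction of the members in model against normal mice, from -4.28 for the Hist3 h2b genes to -0.54 for Hist2h4.

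**Figure D4:**
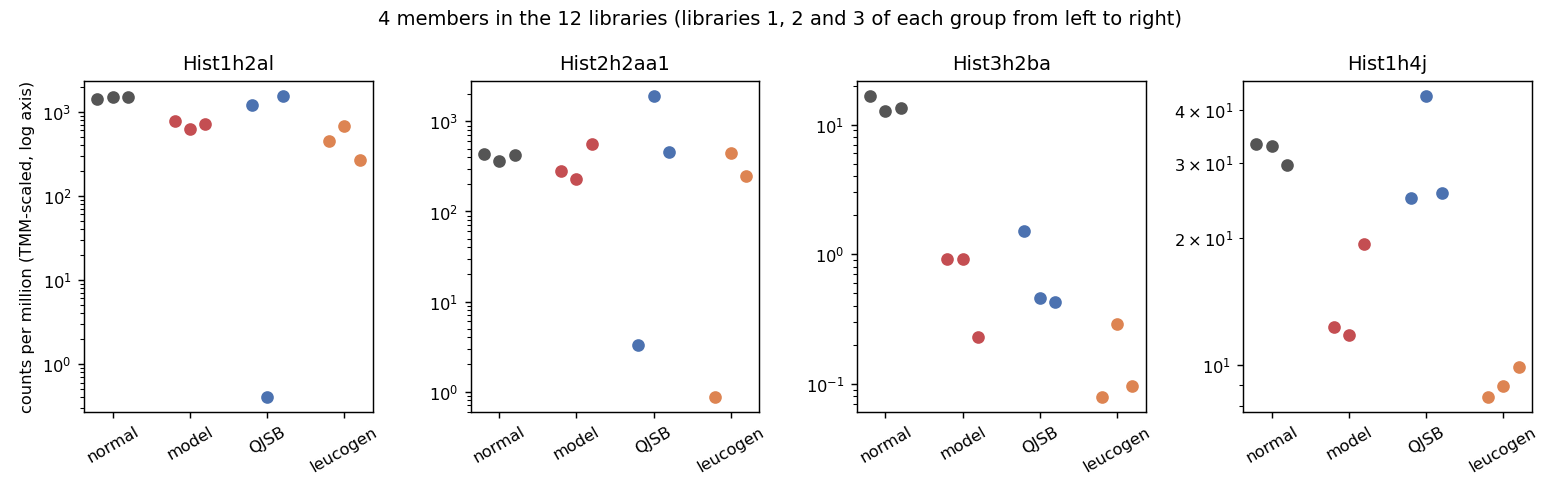
TMM-scaled CPM (log axis) of 4 histone genes in the 12 libraries, with libraries 1, 2 and 3 of each group from left to right. Hist1h2al fell to 0.405 in QJSB 2, where Hist2h2aa1 reached 1913, while Hist3h2ba was lower in all libraries after cyclophosphamide and Hist1h4j was lower in model than in QJSB libraries.

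Some neighbouring Hist1 genes, but not all of a stretch, also moved together within groups, a pattern that was picked out after its values were seen. In leucogen 2, 17 of the 69 members stood at least 2-fold above both other leucogen libraries, against 1.48% of all genes at that level. Hist3h2ba among them rests on 1, 4 and 1 counts, and with a mean of at least 1 CPM in every group 16 of 67 members did so, against 0.802% of all genes. Of the 17, 15 lay between positions 23533906 and 23764358 of chromosome 13, a stretch with 27 members at that level, and they belonged to all 5 types and both strands. The stretch was bounded by the outermost of these 15, and the other members inside it did not follow the pattern. QJSB 3 was the lowest QJSB library for 16 of the 17 and model 3 the lowest model library for 11. Neither of these counts was compared with all genes. Hist1h3f, an h3 gene, read 196, 105 and 18.3 CPM in the model libraries, 191, 151 and 20.2 in the QJSB libraries and 8.10, 116 and 6.05 in the leucogen libraries, while its normal libraries stood at 257, 226 and 221. Hist1h1d went the same way, at 309.5, 213 and 114.5 CPM in model, 383, 436 and 140 in QJSB and 68.0, 271 and 74.8 in leucogen libraries. Its GENCODE M21 transcripts shared 2.21% of their 7376 windows with another member. The deposited Hist1h1d has other coordinates than in M21, so the share for the counted stretch was not measured. Summed, the 17 gave 1834, 1187 and 848 CPM in the model, 2085, 2089 and 796 in the QJSB and 332, 1309 and 341 in the leucogen libraries. The other 54 gave 6049, 6063 and 9831, 7768, 12470 and 10750, and 4374, 5223 and 4652 CPM in the same order, so model 3 was lowest in the first sum and highest in the second. Hist1h3e and Hist1h2be, inside the same stretch, and Hist1h4i and Hist2h2bb (ENSMUSG00000050936) outside it were at least 2-fold lower in leucogen 2 than in both other leucogen libraries. They were 4 of the 69 members, against 1.94% of all genes at that level. What sets these libraries apart was not tested.

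**Figure D5:**
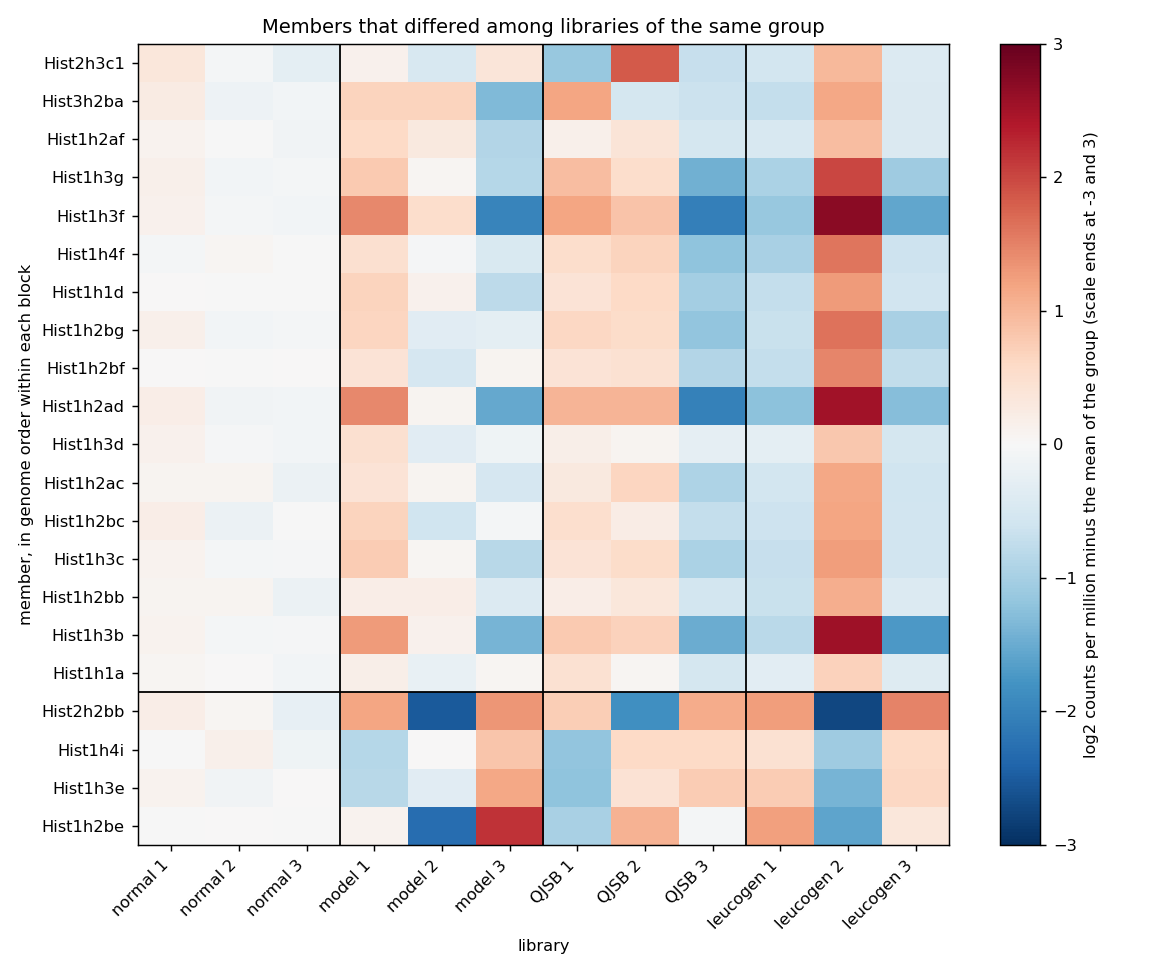
Log2 CPM minus the mean of the own group for the 17 histone genes that were at least 2-fold higher in leucogen 2 than in both other leucogen libraries (above the line) and the 4 that were at least 2-fold lower (below it), by library. Within both blocks the normal libraries differed little. Leucogen 1 and leucogen 3 are low for the 17 because the genes were chosen so. QJSB 3 was the lowest QJSB library for 16 of the 17 and model 3 the lowest model library for 11.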

How the data were processed

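Strand-specific total RNA libraries, depleted of ribosomal RNA, were sequenced by the authors on an Illumina HiSeq, and reads were aligned with HISAT2 to mm10 allowing 2 mismatches. The deposited table holds, for 34745 genes, the authors' whole-number read counts and FPKM for each of 12 libraries. The counter and the handling of reads that fit several genes are not given in the sources used here. Columns headed Blank, Model, Positive and Stilbene were taken to be the normal, model, leucogen and QJSB libraries in that order, the last by elimination. Under this reading the base means computed from the columns came within 1% of those in the study's gene table for 298 of 298, 297 of 297 and 300 of 300 genes in its 3 comparisons, and other readings gave at most 10. This uses the study's own table and does not show which mouse received which agent.

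Deposited counts were tested with edgeR 4.0.16 in R 4.3.3 (TMM scaling, filterByExpr, robust quasi-likelihood fit), each pair of groups alone. The procedure was run on data simulated from the QJSB and model libraries. It recovered 21 of 98 changes of log2 size 1 and 83 of 98 of log2 size 2, with 11 false calls. Most changes of log2 size 1 were thus missed in the simulation. Alternatives used DESeq2 1.42.0, and limma 3.58.1 on log2(FPKM + 0.1) or log2(FPKM + 1) of the deposited FPKM for genes with a mean of at least 0.1. Libraries are separate mice. Pairing by replicate number was checked from deviations from the group means. In QJSB against model the same-numbered correlations were 0.426, 0.123 and 0.107, all over 0.1. In no other comparison were all 3 over 0.1, so the blocked count is printed with that comparison. Even there only replicate 1 correlated best with its own number. In QJSB against leucogen, at 0.181, 0.134 and 0.078, all 3 did. The labels state no shared litter or day. Named genes were the 3 of highest mean FPKM per type, all h1, Hist2, Hist3 and Hist4 members, the 3 largest called changes in each direction per comparison, the 5 of smallest p in QJSB against model, and members known from testis or as polyadenylated mRNA. Hist1h2bg, Hist1h3f, Hist1h2be and Hist1h4i were named after their values were seen. The members and lists were chosen with earlier results of these data known.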

Additional observations from a re-analysis of the deposited data

How the results depend on the processing

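No named histone gene past the adjusted cutoff changed direction under the alternatives run. Of the summed log2 ratios near 0, Hist3 in QJSB against model mice was -0.08 without QJSB 1 and Hist4 in QJSB against normal mice was 0.06 without QJSB 3, each of the opposite sign to the value over all libraries, and the Hist2 h2b genes in QJSB against model mice were 1.01-fold in CPM and 0.915-fold in FPKM, with overlapping groups. The counts of members past the adjusted cutoff in model against normal mice stayed between 35 and 59, and in leucogen against normal mice between 51 and 69, all lower. Over all genes 2135 to 3040 and 2271 to 3473 were lower in those fits. In QJSB against model mice the count of members was 0 under all 15 alternatives. Over all genes DESeq2 without a filter called 4 higher and 4 lower there, and the replicate block 14 higher and 4 lower. By the study's cutoff the 10 members (243 of all genes higher) became 17 with DESeq2 without a filter (394) and 16 with all 12 libraries in one fit (434). They became 17 with the replicate block (433) and 6 with total counts (153). With single libraries left out they were 1 to 27, beside 64 to 843 of all genes. In leucogen against model mice the 17 members (1634 of all genes lower) became 11 with DESeq2 size factors (1531), 28 with FPKM + 0.1 (2445) and 28 with total counts (2655). With single libraries left out they were 4 to 20, beside 494 to 1865 of all genes. With single libraries left out, QJSB against normal gave 14 to 27 in place of 23 (14 without normal 1, 15 without normal 2), beside 2464 to 3328 of all genes lower. QJSB against leucogen gave 23 to 41 in place of 37, beside 769 to 1774 of all genes higher. The other alternatives moved the 37 to between 34 and 44, beside 1704 to 2111 of all genes higher. Pairing by the block moved no other count by over 1.5 times, the counts being 53, 15, 24, 54 and 43 in model against normal, leucogen against model, QJSB against normal, leucogen against normal and QJSB against leucogen. In the same order 2723, 1222, 2798 and 2840 of all genes were lower, and 1899 were higher in the last. Total-count scaling moved the median of all genes from 0.02 to 0.14 in model against normal and from -0.05 to -0.22 in leucogen against model, beside member medians of -1.05 and -0.81. The causes were not tested. With 3 mice a group, members of few counts (Hist1h1t, Hist3h2ba, Hist3h2bb-ps) are limited by depth, and near-identical copies limit single core histone genes.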

Other observations

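Genes of histone variants, listed here as replication-independent, moved in both directions. The list was set by name, and whether each gene is made only outside S phase was not tested. Of 11 tested in model against normal mice 3 rose and 4 fell (16.1% and 19.0% of all genes), with a median log2 fold change of -0.23. H2afy (1.12, SE 0.15) and H2afy2 (3.67, SE 0.64), which encode macroH2A variants, and the linker variant H1f0 (0.71, SE 0.24) rose. H3f3a (-1.45, SE 0.12) and H3f3b (-0.61, SE 0.18), which encode the variant H3.3, the damage-marked variant gene H2afx (-0.86, SE 0.29) and the centromere variant gene Cenpa (-0.63, SE 0.13) fell. None of 10 tested passed in QJSB against model mice. In leucogen against model mice H2afx (-1.30, SE 0.29), H2afy2 (-1.14, SE 0.37), H1f0 (-0.75, SE 0.23), H2afy (-0.65, SE 0.16) and H3f3b (-0.62, SE 0.18) fell and H3f3a rose by 0.84 (SE 0.16), so the H3.3 genes went opposite ways. Over all genes 11.5% fell and 11.6% rose in that comparison. Between QJSB and leucogen 6 were higher with QJSB, H2afx most (1.71, SE 0.16), and none lower, beside 12.9% of all genes higher and 11.7% lower. Adjusted p-values are from edgeR's quasi-likelihood test.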
